A study of Mus musculus with 18 samples.

Results

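The interferon-induced transmembrane genes Ifitm1, Ifitm2, Ifitm3 and Ifitm6 were followed in mouse eosinophils that had been cultured with apoptotic cells and a second stimulus. They were chosen by name, through the Ensembl identifiers of the count table, and are 4 of its 54446 genes. All 4 were detected in all 18 libraries.

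Interferon-induced transmembrane (IFITM) proteins are small proteins of the plasma membrane and of endosomes that make it harder for the envelope of a virus to fuse with a cell membrane. IFITM1 is found mainly at the cell surface, while IFITM2 and IFITM3 reach endosomes and lysosomes. Much less is known of IFITM6, a family member described in mice. Many genes induced by interferons carry GAS elements or interferon-stimulated response elements (ISRE) near their start, and interferon regulatory factors bind the latter. Bacterial products such as those of E. coli are sensed by Toll-like receptors, which activate NF-κB and can lead to type I interferon. IL-4 acts through STAT6.

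The eosinophils came from the peritoneal cavity of Il5Tg mice, in which an interleukin-5 transgene raises eosinophil numbers, and the libraries are labelled with the strain C57BL/6. The age and sex of the animals are not given in the labels. Every culture contained apoptotic cells (ACs), which were thymocytes killed with dexamethasone, at 5 ACs per eosinophil for 18 hours. No group without ACs was analysed here, so no value below measures the effect of ACs themselves. In the Type 1 experiment the groups were ACs, E. coli + ACs, IFN-γ + ACs and IFN-γ + E. coli + ACs, and in the IL-4 experiment they were ACs and IL-4 + ACs, with 3 libraries in each of the 6 groups. After culture the eosinophils were repurified with anti-Siglec-F beads, and bulk RNA was sequenced from transcript 3′ ends.

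Between 779421 and 7782072 reads per library fell on genes, with a median of 4461121. Replicate 3 of both groups in the IL-4 experiment was the shallow exception, with 779421 reads for ACs and 849705 for IL-4 + ACs, so that 1 read there was worth 5.36 and 5.14 normalized counts. Of the eosinophil markers, Siglecf, the receptor used for purification, and Ccr3, the eotaxin receptor, were high in every group, with group means of at least 1630.1 for Siglecf, but the granule gene Epx had group means of at most 14.1. Summed over 10 macrophage markers, all 10 of which had reads in each group, the count was 17510 to 22154 in ACs of the Type 1 experiment, 10034 to 12361 with E. coli, 25540 to 36368 with IFN-γ and 10878 to 11479 with both. It was 29732 to 45282 in ACs of the IL-4 experiment and 23179 to 39058 with IL-4. The sum of 13 thymocyte markers, which stand for the ACs, lay between 51.1 and 197.0 over the 18 libraries. In bulk RNA, fewer cells of a type and less RNA per cell cannot be told apart.

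The 4 genes lie together on mouse chromosome 7 (GRCm38), within 63.1 kb that hold no other protein-coding gene lying wholly inside. Ifitm2 (ENSMUSG00000060591.9, 140954837 to 140955987, minus strand) comes first, followed by Ifitm1 (ENSMUSG00000025491.14, 140967221 to 140969825, plus strand). Ifitm3 (ENSMUSG00000025492.6, 141009586 to 141010770) and Ifitm6 (ENSMUSG00000059108.4, 141015699 to 141017924) follow, both on the minus strand. The transcripts of each have 2 or 3 exons. Ifitm1 is thus the only one of the 4 read from the plus strand.

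For each gene, 100 bases ahead of the transcript start that RefSeq gives are shown, because the 4 genes answered the same stimuli so differently. Each stretch ends just before the first exon base annotated at that start. For Ifitm2 and Ifitm3 it lies ahead of the whole gene, whereas the stretches of Ifitm1 and Ifitm6 lie inside their genes, in introns of longer annotated transcripts that start further upstream. They are RefSeq sequences of GRCm38.p6, written 5′ to 3′ on the strand of the gene, and capitals mark matches to the ISRE (GAAANNGAAA) or GAS (TTCNNNGAA) letters.
Ifitm1, chr7:140967928-140968027, plus strand: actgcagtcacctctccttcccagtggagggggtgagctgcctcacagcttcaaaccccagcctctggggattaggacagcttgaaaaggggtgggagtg
Ifitm2, chr7:140955988-140956087, minus strand: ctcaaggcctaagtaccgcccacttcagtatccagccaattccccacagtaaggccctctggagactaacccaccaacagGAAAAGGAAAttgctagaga
Ifitm3, chr7:141010771-141010870, minus strand: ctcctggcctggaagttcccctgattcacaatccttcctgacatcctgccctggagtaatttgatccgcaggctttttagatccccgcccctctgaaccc
Ifitm6, chr7:141016909-141017008, minus strand: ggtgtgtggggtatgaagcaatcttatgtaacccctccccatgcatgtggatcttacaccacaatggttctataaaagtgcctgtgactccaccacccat
Ifitm3 carries its matches just inside the transcribed part, in the 30 bases from the RefSeq start.
Ifitm3, chr7:141010715-141010744, minus strand: agGAAAAGGAAAcTTCTGAGAAACCGAAAc

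Both strands of the RefSeq window from 250 bases before to 50 bases after each start were searched. The ISRE letters stood once in the Ifitm2 window, at bases −46 to −37 counted from the RefSeq start, and at 2 places in the Ifitm3 window, at bases 3 to 12 and 20 to 29. Of 32851 promoter windows of that length, 3.44% held these letters. The GAS letters stood in the Ifitm3 window at bases 14 to 22, overlapping the second ISRE match, and in the Ifitm6 window at bases −10 to −2 as TTCCTTGAA, and 8.3% of all windows held them. The NF-κB consensus, present in 8.46% of windows, was matched in the Ifitm3 window alone, at bases −116 to −107, and TTCNNNNGAA, the spacing STAT6 prefers, in none of the 4, against 6.95% of windows. No ISRE or GAS letters were found in the Ifitm1 window. The windows of Ifitm1 and Ifitm6 do not cover the most upstream annotated start of either gene. A match is a description of letters and not a site.

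Ifitm1 rose strongly with every type 1 stimulus. Its normalized count was 201, 272 and 179 in the 3 ACs libraries of the Type 1 experiment. With E. coli it was 3619, 4435 and 3709, and with IFN-γ 2635, 2427 and 2077. With both it was 4951, 5393 and 5786. All 9 stimulated libraries lay above all 3 ACs libraries, and the 3 stimulated groups did not overlap one another. A gene was called changed at a Benjamini-Hochberg adjusted p under 0.05 in limma with at least a 1.5-fold difference. Ifitm1 rose 18.2-fold with E. coli, a log2 fold change of 4.19 (SE 0.14, adjusted p = 5.5e-13). IFN-γ raised it 11.03-fold, by 3.46 on the log2 scale (SE 0.14, adjusted p = 1.3e-12), and both together 25.0-fold (adjusted p = 1.6e-14).

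**Figure D1:**
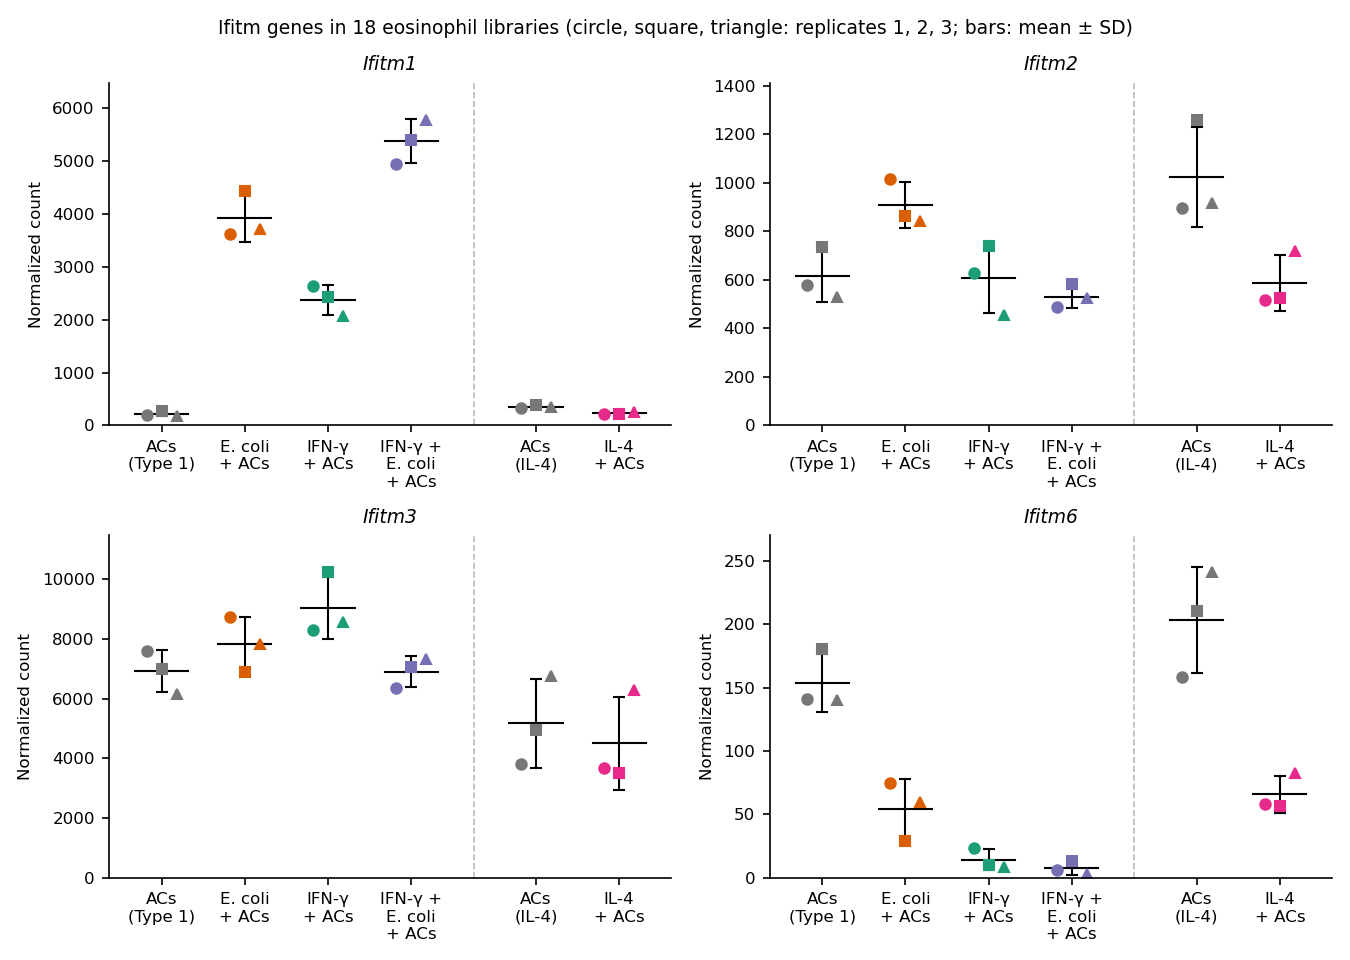
Normalized count (vertical axes, linear, each gene on its own scale) of the 4 genes in the 6 groups; circles, squares and triangles are replicates 1, 2 and 3, horizontal bars are means and error bars SD (n = 3), and the dashed line separates the 2 experiments. Ifitm1 rises from 217 ± 48.9 in ACs to 5377 ± 418 with both type 1 stimuli, Ifitm6 falls from 154 ± 22.9 to 7.3 ± 5.52, and Ifitm2 and Ifitm3 stay within a much narrower range.

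Ifitm6 fell in the same libraries. In ACs of the Type 1 experiment it measured 141, 180 and 140. It measured 74.5, 28.6 and 59.8 with E. coli and 23.7, 10.3 and 8.21 with IFN-γ. With both stimuli it measured 5.70, 13.4 and 2.76. Each stimulated group lay below all 3 ACs libraries, and the IFN-γ group overlapped the group given both. These low values rest on few reads, 537 in the ACs group, 192 with E. coli, 31 with IFN-γ and 17 with both, and replicate 3 of the last had 2 reads, under the floor of 3. Ifitm6 fell by 3.49 on the log2 scale with IFN-γ (SE 0.47, adjusted p = 1.4e-05 in limma), an 11.2-fold lower level. With both its log2 fold change was −4.43 (SE 0.47, adjusted p = 4.6e-07). E. coli lowered it 2.99-fold, by 1.58 on the log2 scale (SE 0.47, adjusted p = 0.031). The call with E. coli was lost when any 1 of 5 of its 6 libraries was left out (adjusted p up to 0.16, without E. coli + ACs replicate 2, where the log2 fold change was −1.18) and when low genes were not filtered out (adjusted p = 0.059).

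Ifitm3, the best studied family member and the most abundant here, started high and moved little. It measured 7576, 6995 and 6166 in ACs of the Type 1 experiment. With E. coli it measured 8727, 6891 and 7817, and with IFN-γ 8307, 10241 and 8557. With both stimuli it measured 6339, 7050 and 7328. Only the IFN-γ libraries lay wholly above ACs, and every other group overlapped them. The difference with IFN-γ was 1.31-fold (log2 0.38, 95% interval 0.14 to 0.63, adjusted p = 0.021 in limma), past the p threshold but short of 1.5-fold. The adjusted p was above 0.05 without the filter on low genes (0.068), with upper quartile scaling (0.077), without ACs replicate 3 (0.12) and without IFN-γ + ACs replicate 2 (0.11). With E. coli the log2 difference was 0.17 (interval −0.07 to 0.42, adjusted p = 0.39), and with both it was 0.001 (interval −0.25 to 0.25, adjusted p = 1.0). Of these 3 intervals only the one with IFN-γ reached beyond 1.5-fold.

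Ifitm2, whose protein reaches endosomes as IFITM3 does, was called with none of the type 1 stimuli. It measured 579, 736 and 529 in ACs of the Type 1 experiment. With E. coli it measured 1015, 863 and 842, with IFN-γ 627, 738 and 454, and with both 486, 583 and 524. The E. coli libraries lay above all 3 ACs libraries, while those of the other stimuli overlapped ACs. How many of all genes had groups apart in this way was not counted. Its difference with E. coli was 1.48-fold (log2 0.57, SE 0.16, adjusted p = 0.026 in limma), which missed the 1.5-fold rule narrowly. The adjusted p was above 0.05 when any 1 of 4 of the 6 libraries was left out (up to 0.14, without ACs replicate 3). In 2 of the 6 such fits Ifitm2 was called, and its log2 fold change ranged from 0.469 to 0.706 over them all. With IFN-γ the log2 difference was −0.03 (interval −0.38 to 0.31) and with both −0.20 (interval −0.54 to 0.14).

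Counted over the family, 1 of the 4 genes rose and 1 fell with each of the 3 type 1 stimuli. Of all 10166 genes tested, 10.3% were called with E. coli (5.05% higher, 5.25% lower), 21.4% with IFN-γ (11.4% higher, 9.96% lower) and 31.9% with both (14.7% higher, 17.2% lower). It was Ifitm1 that rose and Ifitm6 that fell each time. These 3 comparisons share the same ACs libraries and are not independent of one another.

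**Figure D2:**
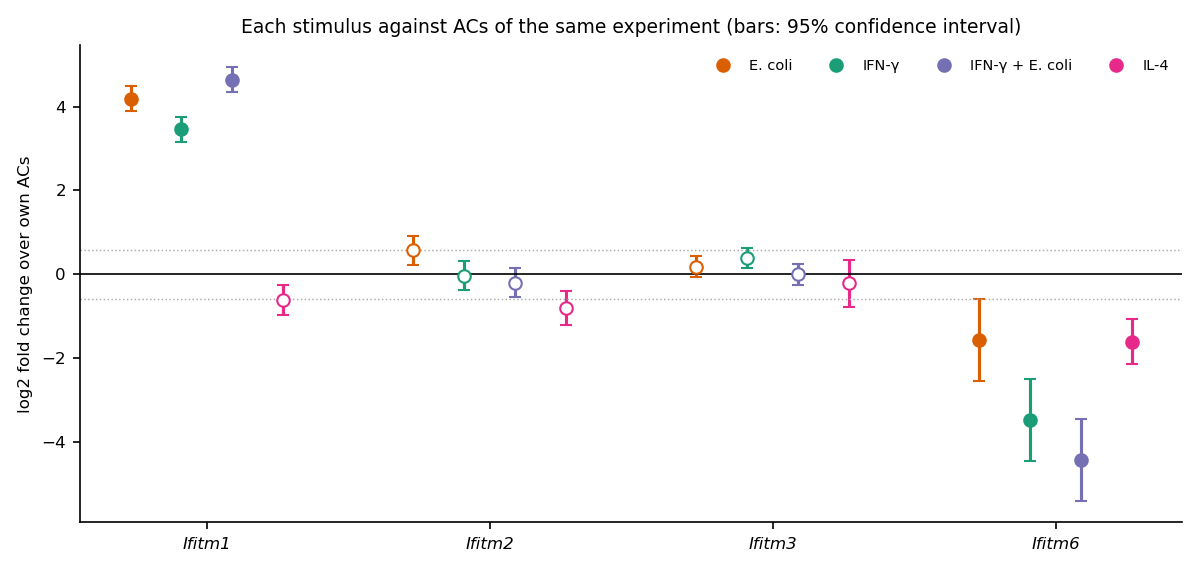
Log2 fold change (vertical axis) of the 4 genes for each stimulus over the ACs libraries of its own experiment, with 95% confidence intervals from limma; filled points passed the adjusted p and 1.5-fold rule, open points did not, and dotted lines mark 1.5-fold. Ifitm1 lies at 3.46 to 4.64 with the type 1 stimuli and Ifitm6 below 0 with all 4 stimuli, whereas no point of Ifitm2 or Ifitm3 is filled.

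IL-4, the type 2 stimulus, lowered Ifitm6 and raised none of the 4 genes. Ifitm6 measured 159, 210 and 241 in ACs of the IL-4 experiment and 57.9, 56.9 and 82.2 with IL-4. All 3 IL-4 libraries lay below all 3 ACs libraries. It fell 3.06-fold, by 1.61 on the log2 scale (SE 0.24, adjusted p = 0.011 in limma). Thus 1 of the 4 genes was lower and none higher, where 1.09% of 10669 genes tested were called (0.347% lower, 0.74% higher). Without IL-4 + ACs replicate 1, or without ACs replicate 2, the adjusted p of Ifitm6 became 0.058 and 0.059, with log2 fold changes of −1.54 and −1.58.

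Ifitm1 and Ifitm2 were also lower in every IL-4 library without passing the test across all genes. Ifitm1 measured 320, 382 and 348 in ACs and 209, 223 and 257 with IL-4, a log2 difference of −0.61 (interval −0.96 to −0.25, adjusted p = 0.17 in limma). Ifitm2 measured 896, 1260.4 and 917 in ACs and 516, 525 and 719.6 with IL-4, a log2 difference of −0.80 (interval −1.21 to −0.39, adjusted p = 0.1). Neither pair of groups overlapped. For this and the other comparisons, the share of all genes with groups apart was not counted. A fit chosen after seeing the data left out both shallow libraries, replicate 3 of each group. In it Ifitm1 and Ifitm2 passed the test, with log2 differences of −0.69 (adjusted p = 0.0086) and −1.03 (adjusted p = 0.0011). The same fit moved the calls over all genes from 79 higher and 37 lower to 345 and 311. Ifitm2 also passed in edgeR and DESeq2 on reads recovered from the normalized counts (adjusted p = 0.019 and 0.0017) and without the filter on low genes (adjusted p = 0.0061), but Ifitm1 did not in these.

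Ifitm3 varied more between replicates of the IL-4 experiment than between its groups. It measured 3818, 4931 and 6771 in ACs and 3689, 3490.3 and 6302 with IL-4, and the groups overlapped. The log2 difference was −0.22 (interval −0.78 to 0.34, adjusted p = 0.81 in limma). In both groups replicate 3, the shallow library, was the highest. The summed macrophage markers were also highest in those libraries, at 45282 in ACs and 39058 with IL-4. Within 5 of the 6 groups of the study the library with the most Ifitm3 was also the one with the highest macrophage sum, and in 4 of 6 all 3 libraries stood in the same order. The highest library was shared in 4 of 6 groups with Ifitm6 and Ifitm2 and in 1 with Ifitm1, and the whole order in 4 with Ifitm6, 1 with Ifitm2 and 0 with Ifitm1. With 3 libraries in a group, such matches also arise without any link, and how often other genes share this order was not counted. The part of macrophage RNA in these values was not tested.

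**Figure D3:**
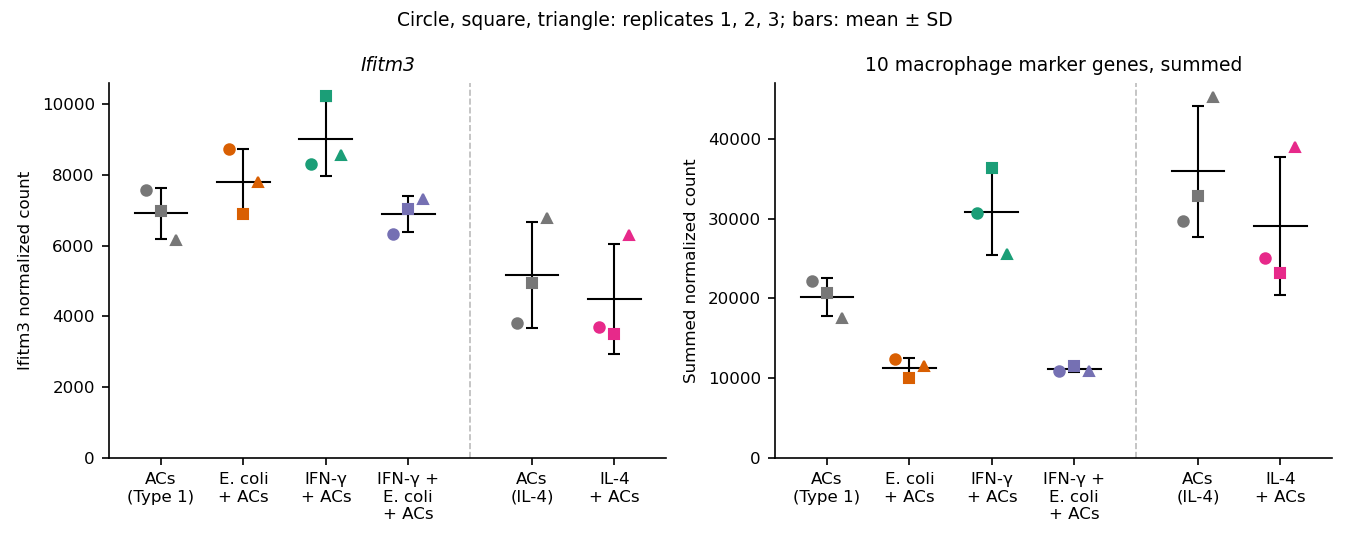
Normalized count of Ifitm3 (left) and the summed normalized count of 10 macrophage marker genes (right) in each library, by group; circles, squares and triangles are replicates 1, 2 and 3, and bars are mean ± SD (n = 3). Replicate 3 is highest in both panels in both groups of the IL-4 experiment, at 6771 and 6302 for Ifitm3, whereas the fall of the macrophage sum with E. coli, to 10034 to 12361, has no counterpart in Ifitm3.

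The macrophage sum was lower with E. coli and with both stimuli than in ACs of the Type 1 experiment and higher with IFN-γ, with no overlap. Ifitm3 moved with it in part. It was likewise above ACs with IFN-γ and lower with both than with IFN-γ alone, but it was not lower than ACs with E. coli or with both. Ifitm1 was higher and Ifitm6 lower than ACs with all 3 stimuli. The sum of 11 eosinophil markers was lower with IFN-γ (10966 to 12491) than in ACs of the Type 1 experiment (17698 to 19152). The sum of 10 neutrophil markers was 1609 to 1902 in ACs of the Type 1 experiment, 2313 to 2599 with E. coli, 2023 to 2536 with IFN-γ and 1128 to 1421 with both. It was thus above ACs with either stimulus, where Ifitm1 was higher as well, and below ACs with both, where Ifitm1 was highest. Most of this sum was Retnlg, at 1665 in ACs and 1683 with E. coli. With E. coli, where Ifitm2 also lay above ACs, the calgranulin gene S100a8 went from a mean of 47.3 to 330.4 and the chemokine receptor gene Cxcr2 from 52.05 to 332. Mpo and Elane, which encode enzymes of neutrophil granules, were at 0 in all 9 stimulated libraries of the Type 1 experiment. In the IL-4 experiment the neutrophil sum overlapped between ACs (3549 to 4773) and IL-4 (3827 to 4215). The B cell sum lay between 12.03 and 89.9 over the 18 libraries. Whether these cells contributed to the Ifitm values was not tested.

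How E. coli and IFN-γ combined was examined next, and the answer for Ifitm1 depended on the scale. E. coli raised Ifitm1 by 4.19 on the log2 scale without IFN-γ but by 1.18 with it (SE 0.14, adjusted p = 1.1e-05 in limma). The interaction, the difference between these effects, was −3.005 (SE 0.20, adjusted p = 9.2e-08 in limma). Ifitm1 was the only member called in the interaction, in which 7.44% of genes tested were called (4.28% with a negative and 3.16% with a positive interaction). On the linear scale the separate differences from ACs were 3704 with E. coli and 2162 with IFN-γ, which would add to a level of 6083. The measured level with both was 5377, a difference of −706.5 from that sum (SE 390.4). The response to both together was thus below the product of the 2 folds but within 2 standard errors of the sum of the 2 differences.

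**Figure D4:**
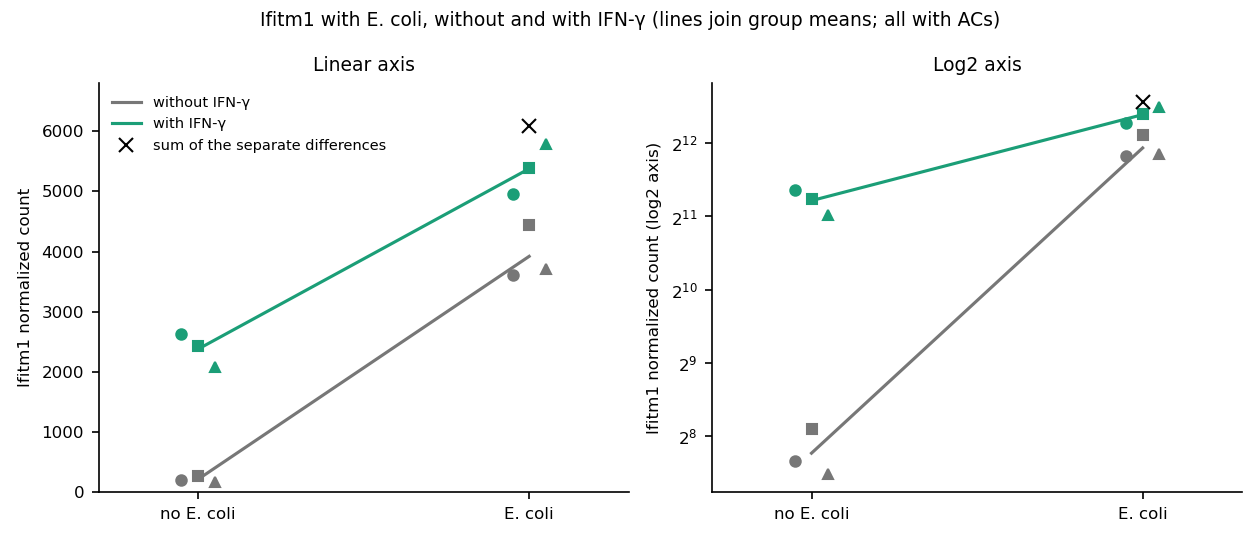
Normalized count of Ifitm1 without and with E. coli, in the absence (grey) and presence (green) of IFN-γ, on a linear axis (left) and a log2 axis (right); points are libraries, lines join group means (n = 3) and the cross is the level reached if the separate differences from ACs are added. The lines are nearly parallel on the linear axis and converge on the log2 axis, where the cross, at 6083, lies above the group mean of 5377.

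None of the other members was called in the interaction. For Ifitm3 it was −0.56 (SE 0.17, adjusted p = 0.048 in limma), past the p threshold but short of 1.5-fold. Its adjusted p was above 0.05 under a replicate block (0.063), in edgeR (0.054) and without the filter on low genes (0.14). For Ifitm2 it was −0.74 (SE 0.23, adjusted p = 0.059). Ifitm2 passed the test of the interaction under a replicate block (adjusted p = 0.034), in edgeR (0.048), in DESeq2 (0.026) and among genes with a mean of at least 50 (0.045). For Ifitm6 it was 0.64 (interval −0.75 to 2.03, adjusted p = 0.63). On the linear scale the level with both stimuli lay below the sum of the separate differences by over 3 standard errors for Ifitm2 (−367.2, SE 120.4) and Ifitm3 (−3029, SE 950.6). For Ifitm6 it lay above that sum (92.6, SE 19.8), but the sum itself was below 0, a level no gene can have.

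Against each single stimulus, 1 of the 4 genes was called when E. coli was added to IFN-γ, where 14.6% of genes tested were called (5.96% higher, 8.61% lower). When IFN-γ was added to E. coli 2 were called, both lower, where 19.4% of genes were called (9.79% higher, 9.57% lower). Adding E. coli to IFN-γ raised Ifitm1 2.27-fold. It left Ifitm3 1.31-fold lower (log2 −0.38, adjusted p = 0.028 in limma, short of 1.5-fold, and 0.093 without the filter on low genes), and Ifitm6 measured −0.94 on the log2 scale (interval −1.92 to 0.04, adjusted p = 0.17). Adding IFN-γ to E. coli lowered Ifitm2 1.71-fold (log2 fold change −0.77, SE 0.16, adjusted p = 0.002) and Ifitm6 7.20-fold (−2.85, SE 0.47, adjusted p = 0.00019). Ifitm1 was 1.37-fold higher (0.46, adjusted p = 0.024), short of 1.5-fold, with an adjusted p of 0.07 under upper quartile scaling.

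E. coli and IFN-γ were also set directly against each other. With IFN-γ as the single stimulus 3 of the 4 genes were lower than with E. coli, where 16.6% of genes tested were called (9.84% higher, 6.72% lower). Ifitm1 was 1.65-fold lower (log2 −0.72, adjusted p = 0.001 in limma), Ifitm2 1.52-fold lower (−0.60, adjusted p = 0.012) and Ifitm6 3.75-fold lower (−1.91, adjusted p = 0.0059). The call of Ifitm2 rested on a difference at the edge of the 1.5-fold rule and was lost in DESeq2, at a log2 fold change of −0.58. Ifitm3 measured 0.21 (interval −0.04 to 0.46, adjusted p = 0.24).

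The responses to IFN-γ and IL-4, each taken against its own ACs, differed for 3 of the 4 genes, where 14.3% of 10414 genes tested were called (8.09% with a larger and 6.17% with a smaller IFN-γ effect). The IFN-γ effect exceeded the IL-4 effect by 4.07 on the log2 scale for Ifitm1 (SE 0.21, adjusted p = 2.7e-11 in limma) and by 0.77 for Ifitm2 (SE 0.26, adjusted p = 0.048). For Ifitm6 the difference was −1.87 (SE 0.61, adjusted p = 0.044). The calls of Ifitm2 and Ifitm6 were lost in many of the alternatives, among them the fit without a filter on low genes (adjusted p = 0.13 and 0.11). For Ifitm3 the difference was 0.60 (adjusted p = 0.16). It passed under a replicate block (adjusted p = 0.032) and, in a fit chosen after seeing the data, without the shallow libraries (0.021).

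Ordered over all 6 groups, Ifitm1 ran from IFN-γ + E. coli + ACs through E. coli + ACs and IFN-γ + ACs to ACs of the IL-4 experiment, each apart from the next. The last neighbours, IL-4 + ACs at 230 ± 24.8 and ACs of the Type 1 experiment at 217 ± 48.9, overlapped. Ifitm6 was highest in ACs of the IL-4 experiment (203 ± 41.7) and of the Type 1 experiment (154 ± 22.9), which overlapped, and the next break lay between these and IL-4 + ACs (65.7 ± 14.3). E. coli + ACs and IFN-γ + ACs stood apart, and the other neighbours overlapped. In the order of Ifitm2 E. coli + ACs (907 ± 94.7) and ACs of the Type 1 experiment (615 ± 108) stood apart, and all other neighbours overlapped. No neighbours in the order of Ifitm3 were apart, from 9035 ± 1052 with IFN-γ to 4494 ± 1569 with IL-4. The 2 ACs groups come from separate experiments, so levels set across the experiments may carry differences between them.

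Through Ifitm1 the make-up of the family changed. Since reads came from transcript ends, counts were compared between genes without dividing by transcript length. The shares are shares of counted reads and not of transcripts, since reads that similar genes have in common are lost. In ACs of the Type 1 experiment Ifitm3 made up 87.5% ± 1.87 (SD, n = 3) of the summed normalized count of the 4 genes and Ifitm1 2.75% ± 0.51. The Ifitm1 share was 31.0% ± 4.79 with E. coli, 19.9% ± 2.52 with IFN-γ and 41.9% ± 0.53 with both, and that of Ifitm3 was 61.4% ± 4.47, 75.0% ± 2.95 and 53.9% ± 0.18. No stimulated library overlapped ACs in either share. The summed level of the 4 genes went from 7898 ± 781 in ACs to 12694 ± 652 with E. coli, 12035 ± 1222 with IFN-γ and 12821 ± 949 with both. In the IL-4 experiment Ifitm1 made up 5.33% ± 1.01 of the sum in ACs and 4.45% ± 0.87 with IL-4, which overlapped, while the Ifitm6 share went from 3.02% ± 0.10 to 1.25% ± 0.11 with no overlap.

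**Figure D5:**
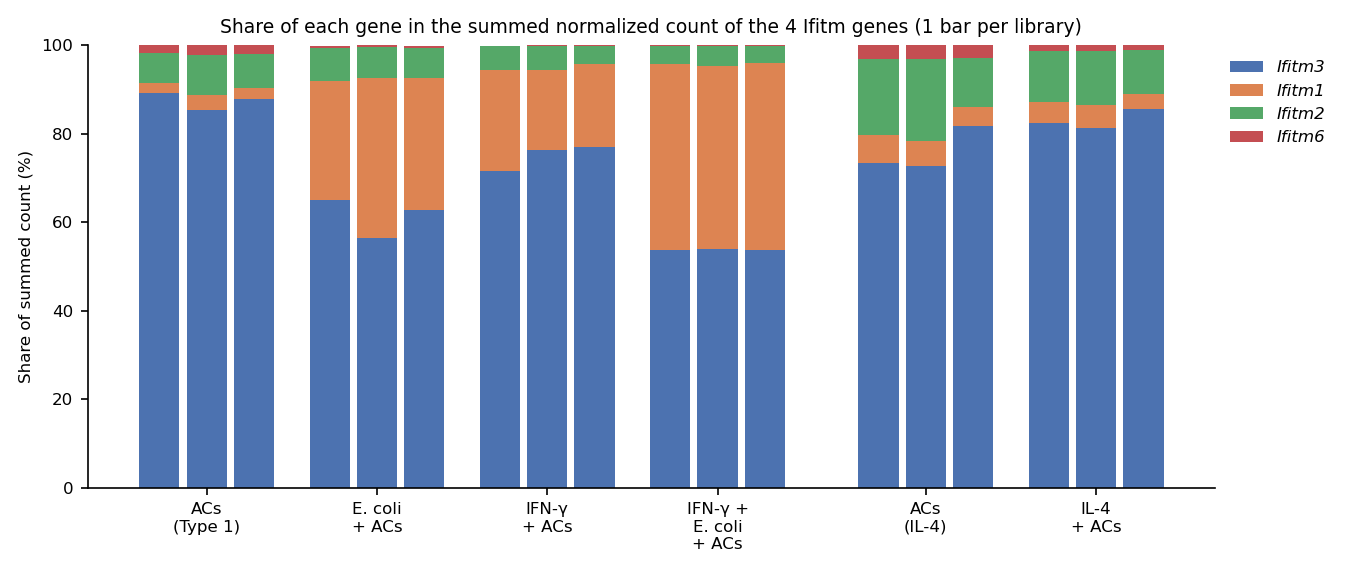
Share (%) of each gene in the summed normalized count of Ifitm1, Ifitm2, Ifitm3 and Ifitm6, with 1 stacked bar per library, grouped by condition. Ifitm1 (orange) grows from 2.75% of the sum in ACs of the Type 1 experiment to 41.9% with IFN-γ and E. coli, while the share of Ifitm3 (blue) goes from 87.5% to 53.9%.

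Counting of such similar genes has limits that differ between the members. In the last 300 bases of the annotated transcripts, 27.5% of the 50-base words of Ifitm2 also occurred in another gene, and none did for the other 3 genes. All of these Ifitm2 words occurred in Gm8865. Gm8865 had no reads in any library, but reads from shared stretches would not be counted for it either. With 30-base words the shares were 32.8% for Ifitm2, 10.3% for Ifitm3, 4.4% for Ifitm1 and 0.0% for Ifitm6. A read from these stretches cannot be placed in 1 gene, so the Ifitm2 counts are less certain than those of the other 3. Gm45717, a predicted read-through gene on the same strand, shares 268 exon bases with Ifitm2, none of them in its last exon, and had no reads.

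The rest of the family was near the limit of detection. Over the 18 libraries together Ifitm5, known from bone-forming cells, had 32 reads, Ifitm7 had 4 and Ifitm10 had 89. None reached the mean normalized count of 10 needed for a test. Ifitm10 was highest with both type 1 stimuli, where its 3 libraries held 21 reads in all. Ifitm7 reached 3 reads in none of the libraries, Ifitm5 in 4 and Ifitm10 in 13.

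Genes beside the cluster did not rise with Ifitm1. Of 8 neighbours on the chromosome 4 were expressed enough to test, and none was higher with any stimulus. Of all genes tested, 5.05% were higher with E. coli, 11.4% with IFN-γ, 14.7% with both and 0.74% with IL-4. Lower were 9.96% of all genes with IFN-γ and 17.2% with both. Pgghg was lower with IFN-γ (log2 fold change −0.78, adjusted p = 0.048 in limma) and with both (−0.74, adjusted p = 0.044), and Pkp3, which encodes a plakophilin of cell junctions, with both (−1.24, adjusted p = 0.015). The neighbours Rnh1, a ribonuclease inhibitor, and Ptdss2, a phosphatidylserine synthase, measured 0.25 and 0.35 with IFN-γ (adjusted p = 0.14 and 0.53). The median log2 difference of the 4 was −0.19 with E. coli, −0.27 with IFN-γ, −0.42 with both and −0.34 with IL-4, beside medians of all tested genes of −0.004, 0.0, −0.047 and −0.008.

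Among 8 genes for proteins that modify or bind IFITM3, all tested, the ubiquitin ligase gene Nedd4 moved furthest. Its level was 276 ± 30.8 in ACs, 136 ± 14.8 with E. coli, 57.0 ± 20.4 with IFN-γ and 91.6 ± 9.33 with both. Its log2 fold changes were −1.02, −2.31 and −1.58, all called (adjusted p = 0.0033, 1.5e-07 and 1.1e-05 in limma). NEDD4 marks IFITM3 for breakdown. Setd7, a lysine methyltransferase that acts on IFITM3, fell as well with all 3 (−0.88, −1.03 and −1.21). Fyn, a tyrosine kinase that phosphorylates IFITM3, rose with IFN-γ (1.20, adjusted p = 0.0018) but fell with E. coli (−0.82, adjusted p = 0.043), and Vapa, a membrane protein that IFITM3 binds, rose with IFN-γ (0.65, adjusted p = 0.0012). In all 0 rose and 3 fell with E. coli, 2 rose and 2 fell with IFN-γ, and 1 rose and 2 fell with both. Over all genes tested, 5.05% rose and 5.25% fell with E. coli, 11.4% and 9.96% with IFN-γ, and 14.7% and 17.2% with both. None of the 8 was called with IL-4, where 1.09% of all genes were. There 5 of 8 lay above 0 and their median was 0.045.

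Among 8 other genes whose products restrict virus entry or release at membranes, only Ch25h was called against ACs. It rose with all 4 stimuli. All 8 were tested with each type 1 stimulus and 7 with IL-4. Over all genes tested, 10.3% were called with E. coli, 21.4% with IFN-γ, 31.9% with both and 1.09% with IL-4. Ch25h makes 25-hydroxycholesterol, which hinders membrane fusion. It stood at 12.8 ± 0.52 in ACs of the Type 1 experiment, at 119 ± 14.3 with E. coli, at 81.8 ± 19.3 with IFN-γ and at 50.6 ± 16.0 with both, and it went from 17.1 ± 4.96 to 134 ± 29.8 with IL-4 (log2 fold change 2.92, adjusted p = 0.0018 in limma). Bst2, whose product tethers budding virus, measured between −0.10 and 0.29 on the log2 scale over the 4 comparisons. Ly6e, an abundant GPI-anchored surface protein, measured −0.37 with IFN-γ (adjusted p = 0.014, short of 1.5-fold), and Apol9b −1.07 (adjusted p = 0.22). The median of the list was 0.26 with E. coli, 0.024 with IFN-γ, 0.029 with both and 0.057 with IL-4.

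Interferon-stimulated antiviral genes of the cytosol gave another yardstick. Of 26 listed, 25 were tested. With E. coli 5 rose and none fell, with IFN-γ 11 rose and none fell, and with both 13 rose and 1 fell. With IL-4 none was called, beside 1.09% of all genes. Of all genes tested, 5.05% rose and 5.25% fell with E. coli, 11.4% and 9.96% with IFN-γ, and 14.7% and 17.2% with both. The median log2 difference of the 25 was 0.13, 0.37, 0.59 and 0.009 with E. coli, IFN-γ, both and IL-4. Ifit2, which blocks translation of viral RNA, rose most with IFN-γ, by 2.48 (adjusted p = 1e-09 in limma), but measured 0.29 with E. coli (adjusted p = 0.29). Rsad2, which encodes viperin, rose with E. coli (1.10) and IFN-γ (1.61). At the low end with IFN-γ, Ifit3b measured −0.48 (adjusted p = 0.077) and Dhx58 −0.21 (adjusted p = 0.25), and Ifit3b fell with both stimuli (−1.39, adjusted p = 1.6e-05). Beside them Ifitm1 had log2 fold changes of 4.19 with E. coli and 3.46 with IFN-γ, above those of all 25.

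Of 13 genes for interferon receptors and signalling, none rose and 1 fell with E. coli, 6 rose and 1 fell with IFN-γ, 6 rose with both, and none was called with IL-4. Among all genes tested, 5.05% rose and 5.25% fell with E. coli, 11.4% and 9.96% with IFN-γ, and 14.7% and 17.2% with both. With IL-4 1.09% were called. The medians of the 13 were 0.18, 0.024, 0.46 and 0.12 with E. coli, IFN-γ, both and IL-4. Irf1, a transcription factor that binds ISRE letters, stood at 783 ± 44.2 in ACs, 690.0 ± 52.4 with E. coli and 4414 ± 242 with IFN-γ, a rise of 2.49 on the log2 scale with IFN-γ (adjusted p = 6.8e-12 in limma) and −0.18 with E. coli (adjusted p = 0.35). Socs1, an inhibitor of the JAK kinases, rose with IFN-γ by 1.48, and Ifngr1, a chain of the IFN-γ receptor, fell (−0.59, adjusted p = 0.0082). The JAK kinase gene Tyk2 measured −0.24 (adjusted p = 0.45). In the E. coli group Ifitm1 rose 18.2-fold and Irf1 measured 0.88-fold. A link between the 2 genes was not tested.

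The genes most like each member were sought over the 18 libraries, as log2 values taken from the mean of their own ACs, among 6902 genes with a mean of at least 50. For Ifitm1 they were B3galnt2, a glycosyltransferase gene (Pearson's r = 0.98), Tnfrsf1b, which encodes TNF receptor 2 (0.98), and Syt7, a calcium sensor of lysosome exocytosis (0.97). Tnfrsf1b stood at 341 in ACs, 1118 with E. coli, 1027 with IFN-γ and 1075 with both. For Ifitm2 they were Ctla2a (0.90), Lcn2, which encodes lipocalin-2 (0.89), and the formyl peptide receptor gene Fpr1 (0.85), which stood at 532 in ACs and 2691 with E. coli but at 674 with IFN-γ and 778 with both.

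For Ifitm3 the 3 genes were Phf11d (0.92), Acp2, a lysosomal acid phosphatase (0.90), and Rbpms, an RNA-binding protein (0.89). Phf11d ran from 2186 in ACs to 3751 with IFN-γ and 2361 with both. For Ifitm6 they were Cuta (0.94), the homeobox gene Hlx (0.94) and Dock5, an exchange factor for small GTPases (0.94), which stood at 666 in ACs, 408 with E. coli, 197 with IFN-γ and 207 with both. Among the members themselves r was −0.73 for Ifitm1 and Ifitm6, 0.53 for Ifitm2 and Ifitm3, 0.48 for Ifitm1 and Ifitm2, 0.41 for Ifitm1 and Ifitm3, 0.17 for Ifitm2 and Ifitm6 and −0.14 for Ifitm3 and Ifitm6. These points share their groups, libraries and depth, and the values describe these 18 libraries.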

How the data were processed

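RNA of 18 cultures was sequenced by CEL-Seq2, which tags transcript 3′ ends. The deposited values are normalized counts per Ensembl gene (a signal, not raw read counts): 100.0% were whole multiples of the value of 1 read, within 0.0055, so the authors had divided whole reads by 1 factor per library, and these reads were recovered. The submitters' processing notes name FastQC 0.11.5, Trim Galore, cutadapt 1.10, TopHat2 2.1.0, Bowtie2 2.2.6, HTSeq 0.6.1, DESeq2 1.26.0 and GRCm38. The study's methods describe more than 1 pipeline, and which one made this table is not given in the sources used here. HTSeq keeps uniquely placed reads, so reads shared by similar genes are lost. Of 54446 identifiers 54409 were paired with a symbol.

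The ACs libraries carry 1 treatment label and were assigned to the experiment whose sample descriptions they resemble. The study's methods speak of biological replicates. A figure legend of the study, on eosinophils with ACs against non-activated ones, assigns each lane to a different mouse. That legend does not cover the stimulated groups, and neither the methods nor the labels name separate mice for these libraries. The p-values measure only the spread between the libraries, which may be technical. Values were compared as log2(normalized count + 1) with limma 3.58.1 (R 4.3.3), with a variance trend, for genes with a mean of at least 10. The 12 Type 1 libraries, the 6 IL-4 libraries and, for the IFN-γ effect minus the IL-4 effect, all 18 were fitted together. Adding 1 before the logarithm shrinks the log2 changes of genes with low counts. For Ifitm6 with both stimuli the fit gave a 21.5-fold lower level, and the ratio of group means was 21.1. On simulated counts 98% of 4-fold changes were recovered for IFN-γ + ACs against ACs (10044 genes) and 82.7% for IL-4 + ACs against ACs (10133 genes). For the interaction 85.4% were recovered (10046 genes) and for the IFN-γ effect minus the IL-4 effect 75.1% (10332 genes). False calls numbered 8, 3, 6 and 7 in that order. The simulation gave all genes 1 fixed dispersion, so these rates need not hold for genes with a wider spread. The SD of Ifitm6 with both type 1 stimuli was 75.6% of its mean.

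The alternatives were a pseudocount of 5, no filter, a mean of at least 50, a replicate block, upper quartile scaling, edgeR 4.0.16 and DESeq2 1.42.0 on recovered reads, the compared groups alone, and leaving out each library. Fits without both shallow libraries, and with a block in the 2 IFN-γ groups alone, were chosen after seeing the data. Same-numbered libraries deviated together (r = 0.169, 0.184 and 0.245) between IFN-γ + ACs and IFN-γ + E. coli + ACs and were read as pairs there alone. The main fits left this pairing out, and it entered only the fits with a block.

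The 4 genes and the gene lists were chosen with earlier results of these data known. Named genes were the 4 members, the other Ifitm genes, the 2 highest and 2 lowest of each list by log2 fold change with IFN-γ, and the 3 genes most correlated with each member. Gene models are from GENCODE M21. March8 and March2 of the table were paired with Marchf8 and Marchf2 through RefSeq synonyms. No 2 replicates of a group agreed within sampling noise, and libraries of different groups were not compared in this way. Floors cover counting error only.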

Additional observations from a re-analysis of the deposited data

Results flagged for a closer look

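The effect of E. coli on Ifitm1 differed with and without IFN-γ, by an interaction of −3.005 on the log2 scale (SE 0.20, adjusted p = 9.2e-08 in limma). It was raised here because 2 effects of the same stimulus differed by a test of the difference itself. The sign held in all 7 other ways of fitting (−3.02 to −2.97) and without any 1 of the 12 libraries (−3.18 to −2.88). On the linear scale the level with both stimuli differed from the sum of the separate differences by −706.5 normalized counts (SE 390.4).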

How the results depend on the processing

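With 1 library left out, 221 of 264 values of the 4 genes kept their direction and their side of the threshold, and under the other alternatives 269 of 288 did. The cause of the other results below was not tested. Values are log2 fold changes. Without the filter on low genes more genes are tested, and the calls of Ifitm6 with E. coli (−1.58) and in the IFN-γ effect minus the IL-4 effect (−1.87) and of Ifitm2 in the latter (0.77) were lost, while Ifitm2 with IL-4 (−0.80) passed. Upper quartile scaling turned Ifitm3 with both stimuli to −0.14 and ended the call of Ifitm2 in the IFN-γ effect minus the IL-4 effect (0.68). That scaling moved the median of all genes with both stimuli from −0.047 to −0.184, and the calls from 1494 higher and 1746 lower to 1155 and 2200. With edgeR, Ifitm3 with both stimuli was −0.003 and Ifitm2 passed with IL-4 (−0.84) and in the interaction (−0.73). With DESeq2, Ifitm2 passed with IL-4 (−0.83) and in the interaction (−0.728) and missed 1.5-fold in IFN-γ against E. coli (−0.58). With a mean of at least 50, Ifitm2 passed in the interaction (−0.735). Under the replicate block Ifitm2 passed in the interaction (−0.735) and Ifitm3 in the IFN-γ effect minus the IL-4 effect (0.60), and no other call of the 4 genes changed, the paired IFN-γ groups included. Without both shallow libraries of the IL-4 experiment, Ifitm1 (−0.69) and Ifitm2 (−1.03) passed with IL-4, Ifitm3 passed (0.66) and Ifitm6 was lost (−1.83) in the IFN-γ effect minus the IL-4 effect.

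Leaving out 1 library at a time changed a call or a direction for these results. Ifitm2 ranged from 0.469 to 0.706 with E. coli, from −0.191 to 0.16 with IFN-γ, from −0.76 to −0.41 in IFN-γ against E. coli, from −0.93 to −0.579 in the interaction and from 0.609 to 0.962 in the IFN-γ effect minus the IL-4 effect. Ifitm3 ranged from −0.079 to 0.07 with both stimuli, from −0.646 to −0.466 in the interaction and from 0.388 to 0.873 in the IFN-γ effect minus the IL-4 effect. Ifitm6 ranged from −1.856 to −1.181 with E. coli, from −1.785 to −1.482 with IL-4, from −1.45 to −0.48 when E. coli was added to IFN-γ and from −2.296 to −1.583 in the IFN-γ effect minus the IL-4 effect. No call of Ifitm1 changed.

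The count of all genes called with IL-4 depended most on the setting. It was 79 higher and 37 lower, against 45 and 29 under the replicate block, 127 and 85 in edgeR, 128 and 81 in DESeq2, 125 and 83 without a filter and 345 and 311 without both shallow libraries. Genes lower with E. coli went from 534 to 936 when only the compared groups were fitted, genes lower with IFN-γ and with both from 1013 to 645 and from 1746 to 963 at a mean of at least 50, and positive interactions from 321 to 485 in DESeq2. With 1 library left out the IL-4 count ranged from 31 to 95 higher and from 16 to 51 lower, and the interaction count from 161 to 444 positive and from 239 to 582 negative. Depth limits Ifitm6 above all, with 17 reads over the 3 libraries given both stimuli.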
